A study of Mus musculus with 8 samples.

Results

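The p53 family and its feedback regulators were followed in mouse colon fibroblasts after fractionated irradiation. The 10 genes were chosen by name, with earlier results of these data known, from the 55573 genes counted in each library: Trp53, Trp63 and Trp73, which encode the p53 family, and Mdm2, Mdm4, Ppm1d, Ccng1, Trp53inp1, Zmat3 and Rchy1, which encode proteins that act on p53 and in several cases are switched on by it. Colon fibroblasts of the C57BL6/J strain were grown as a 2D culture in Advanced DMEM F12 with 10% FBS, and both groups received conditioned medium of APTKA, a name that the labels leave unexpanded. The 4 non-irradiated libraries (replicates I to IV) received no radiation, the 4 irradiated libraries (I to IV) received 3 fractions of 2 Gy, and collection was at 72 h after the first dose. No group without conditioned medium was analysed here. Samples are termed independent in the design text, but whether each had its own animal or culture is not said. The p-values therefore reflect library-to-library spread that could be technical.

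p53 is a transcription factor that is held at a low level by constant degradation and is stabilised when DNA is damaged. Mdm2 is the ubiquitin ligase that marks p53 for degradation, Mdm4 is its partner and blocks p53 activity, and because p53 itself switches on Mdm2 and other inhibitors, the pathway forms negative feedback loops. Control of p53 acts largely on the protein, which RNA counts do not measure. In a bulk library, a change in the share of responding cells and a change in RNA per cell cannot be told apart.

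Library totals ran from 28731227 to 37157216 counts. Of the 12 fibroblast markers, 12 were above 1 CPM (the count scaled to the size of its library) on average, with a summed level of 16247 to 19079 CPM in non-irradiated and 14800 to 16120 CPM in irradiated libraries. The 10 markers of colon epithelium summed to 1.03 to 2.16 and 1.12 to 1.65 CPM. The 4 markers of basal epithelium, the tissue in which Trp63 is best known, summed to at most 0.0318 and 0.0553 CPM, and Krt15 and Dsg3 had no counts in any library. Irradiated I and II carried 15129 and 15263 CPM of mitochondrial rRNA against 4178 to 5934 CPM in the other 6 libraries. Among the fibroblast markers Col1a2 (log2 fold change -0.24, edgeR adjusted p = 0.0101) and Vim (-0.14, 0.0462) were called lower. The 5 smooth muscle markers summed to 446 to 476 and 387 to 448 CPM, 1 of them was under 1 CPM, and Actg2 was called lower (edgeR adjusted p = 0.0263). The 4 pericyte markers summed to 75.6 to 88.1 and 92.5 to 103 CPM, nearly all of it Notch3, which was called higher (edgeR adjusted p = 0.0109), while the other 3 were under 1 CPM. The part of these markers in the results was not tested. Libraries were compared after TMM scaling, a correction for composition. A called gene is one with an edgeR quasi-likelihood adjusted p below 0.05 among 15259 tested genes, and 6.74% of them were called.

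The promoter sequence is shown for the 3 genes called higher whose window held the motif described here. Of these, Mdm2 and Ccng1 are textbook targets of p53. RefSeq windows (GRCm38.p6) were available for 7 of the 10 genes, 10 windows in all, and the 200 bases from 250 to 51 before each annotated start were searched for the 10-base p53 half-site, a motif that reads the same on both strands. Trp53inp1, Trp63 and Zmat3 had no window and were not searched. Capitals mark the match, and each sequence is written 5′ to 3′ on the strand of the gene. The Mdm2 window is chr10:117710809-117711008 on the minus strand, the Ppm1d window chr11:85311004-85311203 on the plus strand and the Ccng1 window chr11:40755337-40755536 on the minus strand. GENCODE M21 places no exon in these 3 windows.
Mdm2: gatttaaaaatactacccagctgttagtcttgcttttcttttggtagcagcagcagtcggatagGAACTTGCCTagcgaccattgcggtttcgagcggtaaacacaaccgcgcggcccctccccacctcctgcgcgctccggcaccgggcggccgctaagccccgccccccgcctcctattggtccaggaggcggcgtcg
Ppm1d: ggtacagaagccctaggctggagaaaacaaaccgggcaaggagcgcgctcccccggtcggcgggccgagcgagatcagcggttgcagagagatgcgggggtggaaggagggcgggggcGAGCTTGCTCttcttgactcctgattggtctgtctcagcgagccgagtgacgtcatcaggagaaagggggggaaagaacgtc
Ccng1: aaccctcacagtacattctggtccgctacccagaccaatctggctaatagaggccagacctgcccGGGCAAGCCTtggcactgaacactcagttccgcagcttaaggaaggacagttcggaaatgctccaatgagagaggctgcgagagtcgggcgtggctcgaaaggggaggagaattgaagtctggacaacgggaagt

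The matches began 186 bases before the start of Mdm2, 132 before that of Ppm1d and 185 before that of Ccng1. A match was also present in the Trp53 window (75 bases before the start) and in 1 of the Rchy1 windows (90 bases before), while neither Mdm4 window and neither Trp73 window held one. Thus 5 of the 10 windows held the motif, against 5.82% of the 32851 windows of all genes. Each of the 5 held 1 match only, so none held 2 half-sites at most 13 bases apart, which 18 of all windows (0.055%) did. Unlike the windows printed above, the Trp53 window overlaps exon sequence of Wrap53. The matching Rchy1 window overlaps exons of Rchy1 and Thap6. Genes with a match were found on both sides of the expression test described next, since Trp53 and Rchy1 were not called and Mdm4, without a match, was. A match is a description of letters and not a site of binding. The known p53-responsive promoter of Mdm2 lies in its first intron and is outside this window.

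Irradiated fibroblasts carried more transcripts of 5 of the 10 genes: Mdm2, Mdm4, Ppm1d, Ccng1 and Trp53inp1 rose by 25.3% to 44.8%, and in each of the 5 the lowest irradiated library was above the highest non-irradiated one. Of all genes tested, 2.59% were called higher and 6.13% had non-overlapping groups in that direction (8.07% in the lower direction). The remaining tested genes, Trp53, Zmat3 and Rchy1, were not called, and none of the 8 tested genes was called lower, where 4.15% of all genes were (at an unadjusted p under 0.05, 1 was lower, Zmat3, against 11.7% of all genes, and DESeq2 also called 0 lower). Trp63 and Trp73 did not pass the filter on low counts. The median log2 fold change of the 8 was 0.36, and that of all tested genes was 0.000883. Without both irradiated I and II, the libraries with high mitochondrial rRNA, the same 5 genes were called, with log2 fold changes from 0.31 for Mdm2 to 0.54 for Trp53inp1.

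**Figure D1:**
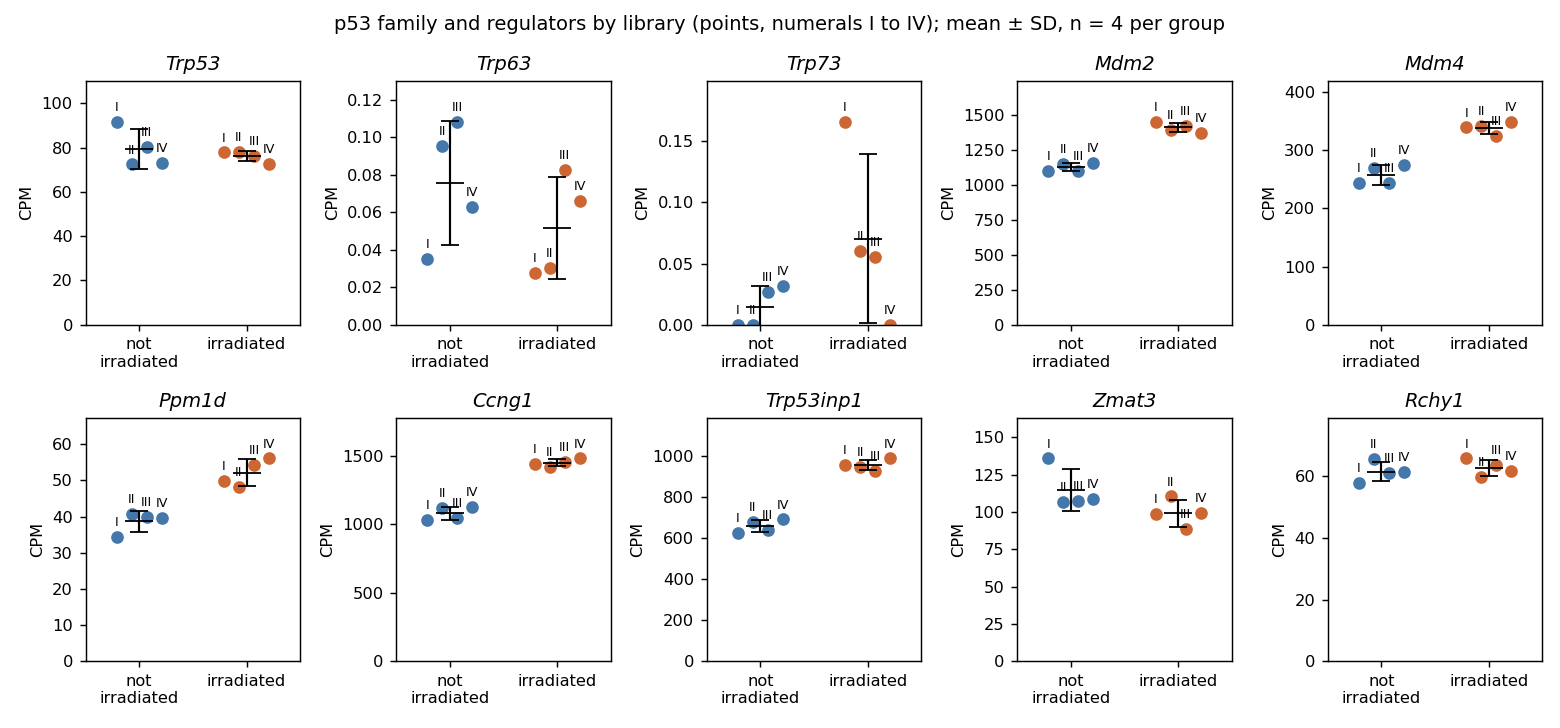
CPM of the 10 genes in each library, with points for replicates I to IV and bars for mean ± SD (n = 4 per group); every vertical axis starts at 0 and has its own scale. Irradiated points lie above all non-irradiated points for Mdm2, Mdm4, Ppm1d, Ccng1 and Trp53inp1, the groups overlap for Trp53, Zmat3 and Rchy1, and Trp63 and Trp73 have at most 4 and 6 counts in a library.

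The p53 gene itself, Trp53 (ENSMUSG00000059552, chromosome 11, 69580359 to 69591873, GRCm38), was measured at 91.7, 72.4, 80.3 and 73.2 CPM in non-irradiated libraries I to IV. Irradiated libraries I to IV had 77.9, 78.0, 76.3 and 72.8 CPM. The irradiated values fell within the non-irradiated range, and non-irradiated I was the highest of the 8. The means were 79.4 ± 8.95 and 76.2 ± 2.43 CPM (SD, n = 4 each), and the log2 fold change was -0.059 with a 95% interval of -0.20 to 0.082 (edgeR adjusted p = 0.666). Its sign turned without non-irradiated I, where the log2 fold change was 0.017.

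The other family members were close to absent at this depth. Trp63 (ENSMUSG00000022510, chromosome 16, 25683763 to 25892102), a regulator of stratified epithelium, had 1, 3, 4 and 2 counts in non-irradiated and 1, 1, 3 and 2 counts in irradiated libraries I to IV. Trp73 (ENSMUSG00000029026, chromosome 4, 154056253 to 154140208), which acts in neural and ciliated cells, had 0, 0, 1 and 1 counts in non-irradiated and 6, 2, 2 and 0 counts in irradiated libraries. No difference between groups could be measured from totals of 10 and 7 counts for Trp63 and 2 and 10 counts for Trp73, of which 6 came from irradiated I. A library with 0 counts is compatible with up to 3, which corresponds to 0.0963 to 0.104 CPM in the libraries without Trp73 counts and covers counting error only.

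Among the ubiquitin ligases, Mdm2 (ENSMUSG00000020184, chromosome 10, 117688875 to 117710758) had 1103, 1151, 1103 and 1158 CPM in non-irradiated libraries I to IV. Irradiated libraries I to IV had 1456, 1399, 1426 and 1373 CPM. All 4 irradiated libraries stood above all 4 non-irradiated ones, and the gap between the groups was larger than the range within either. The log2 fold change was 0.33 with a 95% interval of 0.25 to 0.40 (SE 0.036, edgeR adjusted p = 9.95e-05).

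Mdm4 (ENSMUSG00000054387, chromosome 1, 132959484 to 133030561), the Mdm2 relative that binds and restrains p53, rose by a similar factor. It had 243, 269, 243 and 275 CPM in non-irradiated libraries I to IV and 339, 342, 325 and 349 CPM in irradiated libraries. The groups did not overlap. The means were 258 ± 17.0 and 339 ± 10.3 CPM (SD, n = 4), with a log2 fold change of 0.39 (95% interval 0.29 to 0.49, SE 0.046, edgeR adjusted p = 0.000164).

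Rchy1 (ENSMUSG00000029397, chromosome 5, 91948904 to 91963068), also called Pirh2, encodes another ubiquitin ligase of p53. It had 57.8, 65.6, 61.2 and 61.5 CPM in non-irradiated and 65.9, 59.7, 63.7 and 61.8 CPM in irradiated libraries. The groups overlapped throughout, with a log2 fold change of 0.028 and a 95% interval of -0.072 to 0.13 (edgeR adjusted p = 0.783). Thap6, annotated on the opposite strand, shares 680 bases of exon with Rchy1, which is 18.0% of the Rchy1 exons. The strand setting of the counting is not given in the sources used here, so reads of these genes may not be separable. Thap6 itself was at 9.24 ± 0.66 and 11.1 ± 0.51 CPM (SD, n = 4) with a log2 fold change of 0.27 (edgeR adjusted p = 0.0378). This call was kept in 1 of the 8 fits that left out 1 library, that without non-irradiated II, with adjusted p up to 0.0992. The other genes annotated over these 10 add little: Trp73os, which shares 280 exon bases with Trp73, had 0 counts in every library, and Gm43039, Gm29257, Gm27005, Gm24928 and Gm26036 share no exon bases with them.

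Ppm1d and Ccng1 act on p53 through dephosphorylation. Ppm1d (ENSMUSG00000020525, chromosome 11, 85311244 to 85347066) encodes the phosphatase Wip1, which removes damage-induced phosphates from p53 and its kinases. It had 34.5, 40.7, 39.8 and 39.7 CPM in non-irradiated and 49.9, 48.2, 54.4 and 56.1 CPM in irradiated libraries I to IV. The groups did not overlap, and non-irradiated I lay below the other 3 of its group. The log2 fold change was 0.43 (95% interval 0.30 to 0.56, SE 0.060, edgeR adjusted p = 0.00062).

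Ccng1 (ENSMUSG00000020326, chromosome 11, 40748552 to 40755311) encodes cyclin G1, which recruits a phosphatase to Mdm2. It had 1029, 1119, 1047 and 1123 CPM in non-irradiated libraries I to IV. Irradiated libraries had 1440, 1418, 1457 and 1480 CPM, a narrow range above all non-irradiated values. The log2 fold change was 0.42 (95% interval 0.34 to 0.51, SE 0.039, edgeR adjusted p = 3.21e-05), and by its p the gene was number 23 of the 15259 tested.

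Trp53inp1 (ENSMUSG00000028211, chromosome 4, 11156431 to 11174379), a p53-induced nuclear protein that promotes p53 phosphorylation, had the largest rise of the 8 tested genes. Non-irradiated libraries I to IV had 625, 681, 643 and 691 CPM. Irradiated libraries had 955, 948, 930 and 989 CPM. Its log2 fold change was 0.53 (95% interval 0.45 to 0.62, SE 0.040, edgeR adjusted p = 1.08e-05), number 6 of all tested genes by p.

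Zmat3 (ENSMUSG00000027663, chromosome 3, 32334792 to 32366014), an RNA-binding zinc finger protein known both as a p53 target and as a stabiliser of p53 mRNA, did not rise with the other targets. It had 136, 107, 107 and 109 CPM in non-irradiated and 98.7, 110, 88.5 and 99.4 CPM in irradiated libraries I to IV. Irradiated II was above 3 of the non-irradiated libraries, so the groups overlapped. The log2 fold change was -0.21 (95% interval -0.38 to -0.036, not adjusted over genes; edgeR adjusted p = 0.148), and without non-irradiated I it was -0.12.

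**Figure D2:**
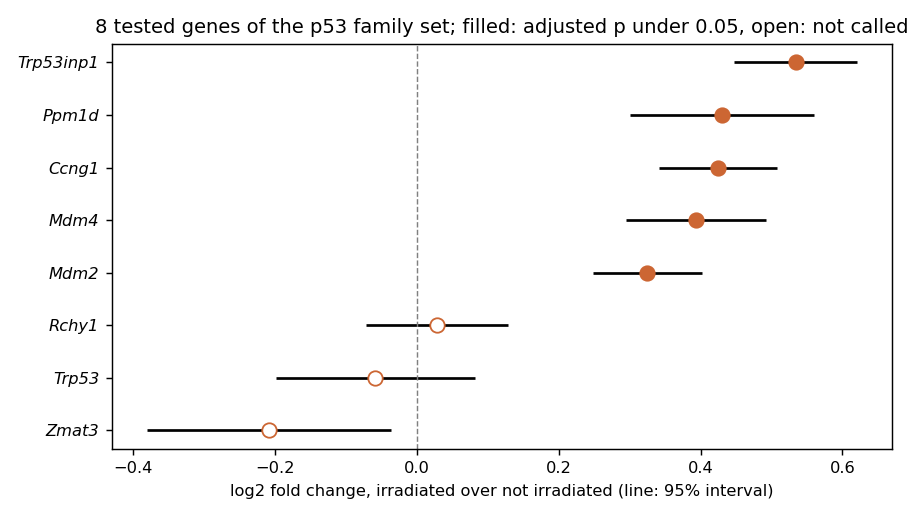
Log2 fold change of irradiated over non-irradiated libraries for the 8 tested genes, with 95% intervals as lines; filled points passed an adjusted p of 0.05. The 5 filled points lie between 0.33 and 0.53, and the open points are Rchy1 at 0.028, Trp53 at -0.059 and Zmat3 at -0.21.

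Divided by the length of all annotated exons, the levels set 3 genes well apart from the others. In non-irradiated libraries Ccng1 was at 307, Mdm2 at 222 and Trp53inp1 at 102 CPM per kb, and no ranges of these 3 overlapped. Trp53 (19.6 CPM per kb), Mdm4 (17.4) and Rchy1 (16.3) followed, with ranges that overlapped between neighbours, and Ppm1d (12.2) and Zmat3 (10.0) came last and overlapped as well. In irradiated libraries the upper 3 kept their order at 413, 278 and 148 CPM per kb. Mdm4 then stood at 22.9 (range 21.9 to 23.6) and Trp53 at 18.8 (range 18.0 to 19.3), so that these ranges no longer overlapped, while Rchy1 at 16.6 and Ppm1d at 16.4 did. The annotated Mdm4 exons add up to 14798 bases over 14 transcripts, so its level per length is understated wherever the cells use shorter forms. The same limit applies to Zmat3, with 11435 bases over 4 transcripts, and in some degree to every gene.

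Ratios between these genes within a library do not depend on how libraries are scaled. The log2 ratio of Mdm2 to Trp53 counts was 3.59, 3.99, 3.78 and 3.98 in non-irradiated and 4.22, 4.17, 4.22 and 4.24 in irradiated libraries I to IV, without overlap. The mean difference was 0.38 (exact two-sided permutation p = 0.0286, 0.0381 adjusted over 4 ratios). Trp53inp1 to Trp53 rose by 0.59 and Ccng1 to Zmat3 by 0.63 on the same scale, each with 4 of 4 irradiated libraries above all non-irradiated ones and the same exact p, which is the smallest that 70 splits allow. Each of these ratios, like that of Mdm2 to Trp53, sets a gene called higher over a gene not called in the same libraries. Their p-values are therefore not evidence separate from those calls. Mdm2 to Mdm4 was 2.13 ± 0.057 and 2.06 ± 0.071 (SD, n = 4 each), a difference of -0.070 with overlapping groups (exact permutation p = 0.2, 0.2 adjusted), so a shift in the balance of these partners was not detectable.

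**Figure D3:**
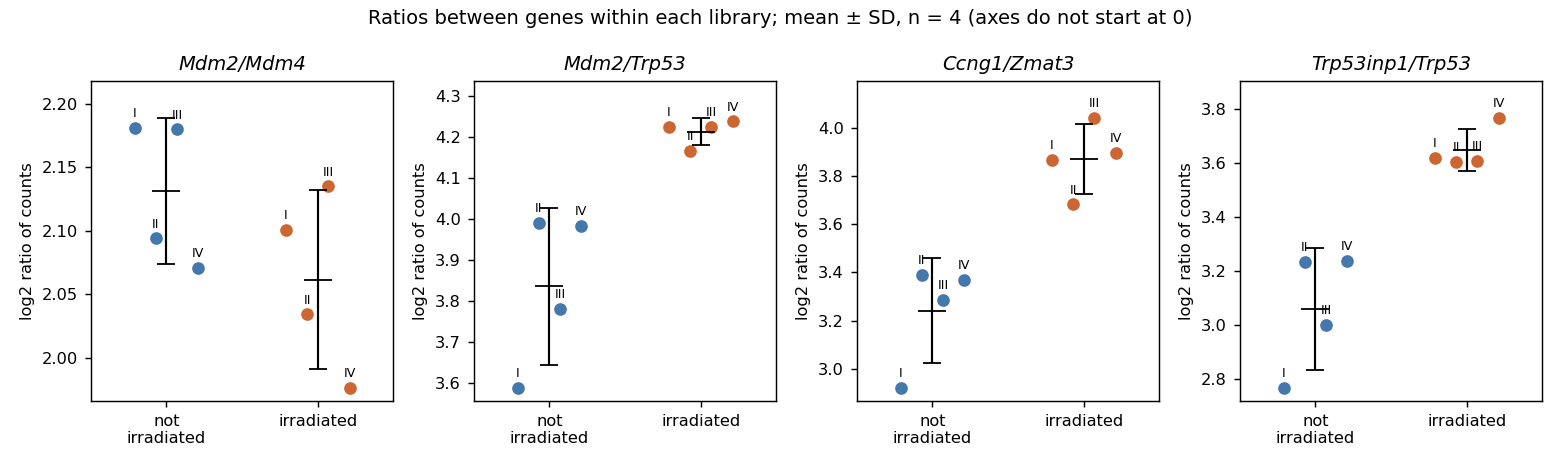
Log2 ratio of counts for 4 pairs of genes in each library, with points for replicates I to IV and bars for mean ± SD (n = 4 per group); the vertical axes do not start at 0. Irradiated points lie above all non-irradiated points for Mdm2/Trp53, Ccng1/Zmat3 and Trp53inp1/Trp53, and the groups overlap for Mdm2/Mdm4.

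Ratios among the 5 genes that rose were not tested. The log2 ratio of Mdm2 to Trp53inp1, the pair with the largest difference of 10 and chosen for it, was 0.74 to 0.82 in non-irradiated and 0.47 to 0.62 in irradiated libraries. The groups did not overlap, and the mean difference was -0.21. Groups were also apart for Mdm4 to Trp53inp1 (mean difference -0.14), Ccng1 to Trp53inp1 (-0.11) and Mdm2 to Ccng1 (-0.10). These differences come from the same values as the calls, and no share over pairs of other genes was computed. The remaining pairs overlapped between groups, among them Mdm4 to Ccng1, with a mean difference of -0.030, and Ppm1d to Ccng1, with 0.0066.

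Within the non-irradiated group several of the genes shared a split of the libraries, which was picked after the values were seen. Of the 5 genes called higher, 4 (Mdm2, Mdm4, Ccng1 and Trp53inp1) were higher in both non-irradiated II and IV than in both I and III. Rchy1, which was not called, showed the same split, whereas Trp53 was lower in II and IV. The share of all tested genes with this split was not computed, so whether it is particular to these genes is not known. Non-irradiated I held the lowest value of its group for 6 of the 8 tested genes and the highest for the other 2, Trp53 and Zmat3. How often it did so over all tested genes was not computed either. The same split of libraries appeared in base composition: across 15249 genes, log2 CPM changed per 10 percentage points of transcript GC by 0.064 and 0.054 in non-irradiated I and III and by -0.050 and -0.096 in II and IV. In irradiated I to IV it changed by 0.0087, -0.027, 0.063 and -0.018. Transcript GC was 38.8% for Trp53inp1, 40.8% for Ccng1, 43.3% for Mdm4 and 46.2% for Mdm2, all below the median of 49.3%, and 53.3% for Trp53. Zmat3 (47.6%) and Rchy1 (46.7%) were also below the median, and Ppm1d (49.1%) was close to it. Zmat3 and Ppm1d did not show the split. The part of base composition in these differences between libraries was not tested. With the GC and length trends of each library removed, the same 5 genes were called, and the log2 fold changes were 0.34 for Mdm2 and 0.55 for Trp53inp1. Without both non-irradiated I and III they were 0.29 and 0.48, and all 5 were called.

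**Figure D4:**
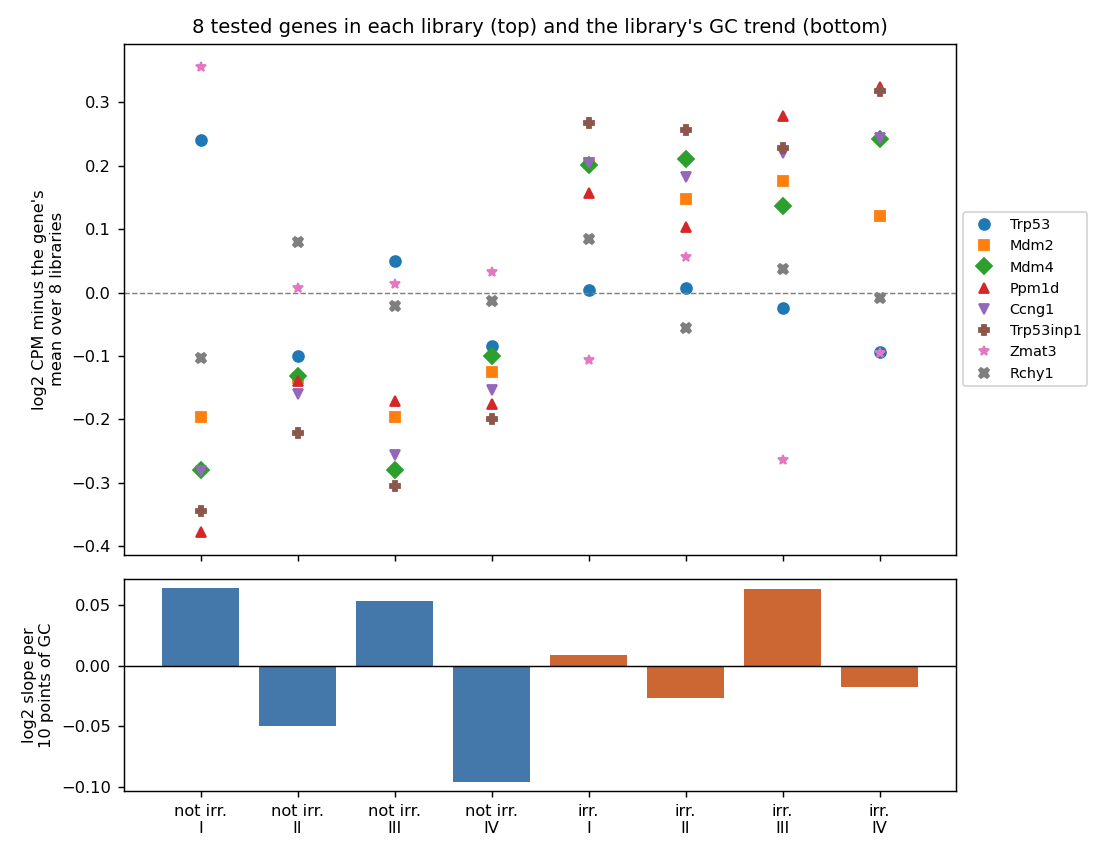
Upper panel: log2 CPM of the 8 tested genes in each library minus the gene's mean over all 8 libraries, with 1 symbol per gene. Lower panel: slope of log2 CPM on transcript GC in each library, as the change per 10 percentage points; non-irradiated I and III have positive and II and IV negative slopes, and the 5 genes called higher are below 0 in every non-irradiated and above 0 in every irradiated library.

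Other genes of the pathway were read from 3 lists. Of 28 tested p53 effector targets (29 listed, Perp not tested), 14 were called higher, against 2.59% of all genes, and 0 lower (0 lower also at an unadjusted p under 0.05 and with DESeq2). Their median on the log2 scale was 0.19. Btg2, an antiproliferative gene, rose from 145 ± 5.33 to 196 ± 10.1 CPM (SD, n = 4; log2 fold change 0.44, edgeR adjusted p = 4.86e-05). Ephx1, an epoxide hydrolase, rose by 0.31 and the kinase gene Plk2 by 0.25 on the log2 scale. Cdkn1a, which encodes the cell cycle inhibitor p21, had a log2 fold change of 0.34 (edgeR adjusted p = 0.00135), close to that of Mdm2. The list's values reached 0.65, for the pro-apoptotic gene Bbc3, which was named after its value was seen.

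Of 20 kinases, acetylases and cofactors of p53, 1 was called higher and 2 lower, against 2.59% and 4.15% of all genes, and the median on the log2 scale was -0.0085. Hipk2, a kinase of p53, fell from 30.8 ± 1.99 to 24.9 ± 1.98 CPM (SD, n = 4; log2 fold change -0.31, edgeR adjusted p = 0.0101), and its call was lost without both non-irradiated I and III (adjusted p = 0.0754). Chek1, a checkpoint kinase, fell from 11.6 ± 0.84 to 9.23 ± 0.43 CPM (log2 fold change -0.34, edgeR adjusted p = 0.0125), which did not pass the threshold when irradiated I and II were both left out (adjusted p = 0.121). The higher gene was Ppp1r13l, which encodes iASPP, an inhibitor of p53 (log2 fold change 0.32, edgeR adjusted p = 0.0171). Its call was lost without irradiated I (adjusted p = 0.0522), without irradiated IV (0.0583), and when pairs of libraries were left out, non-irradiated I with III (0.0592) or irradiated I with II (0.0636). It was also lost with GC and length trends removed, where the log2 fold change was 0.22 (adjusted p = 0.0939). Csnk1a1, casein kinase 1 alpha, was at 846 ± 13.9 and 869 ± 24.8 CPM and was not called (edgeR adjusted p = 0.571).

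Of 17 other ubiquitin ligases, deubiquitinases and Mdm2 inhibitors, 0 were called by edgeR. At an unadjusted p under 0.05, 3 were higher and 0 lower, where 9.5% and 11.7% of all tested genes were. DESeq2 called 3 higher, among 539 genes higher and 775 lower in all. The median on the log2 scale was -0.017. The ligase gene Rffl was at 41.6 ± 2.23 and 46.4 ± 0.94 CPM (SD, n = 4; edgeR adjusted p = 0.0522). Stub1, a chaperone-linked ligase, was at 40.1 ± 3.78 and 47.6 ± 5.10 CPM (edgeR adjusted p = 0.0775), and Trim28 at 429 ± 26.0 and 407 ± 12.2 CPM (edgeR adjusted p = 0.335).

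**Figure D5:**
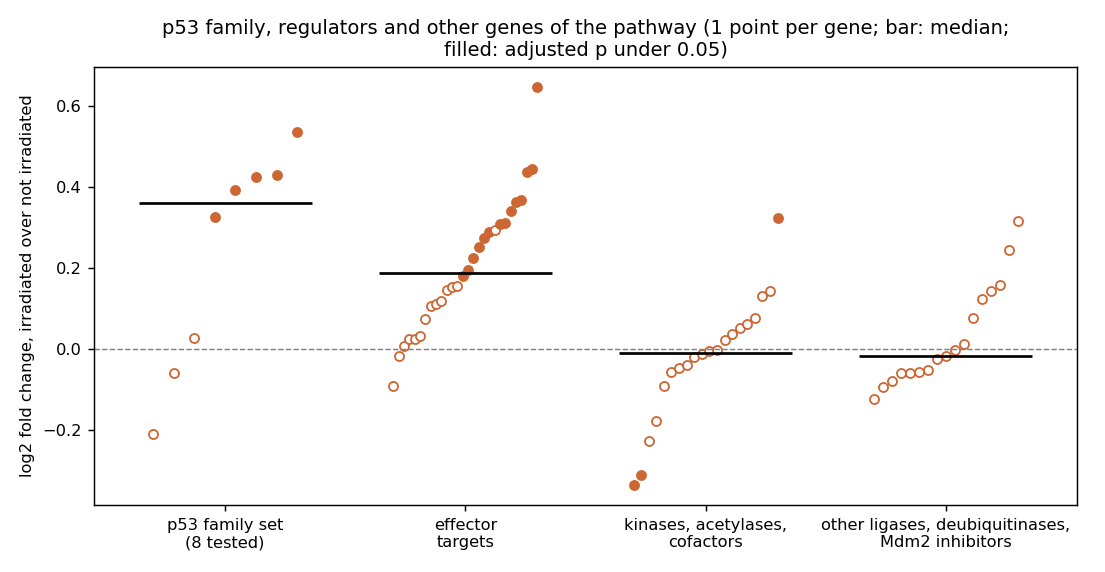
Log2 fold change of irradiated over non-irradiated libraries for every tested gene of the p53 family set and of 3 pathway lists, 1 point per gene, with the median as a bar and filled points for an adjusted p under 0.05. The medians are 0.36 for the 8 tested family and feedback genes, 0.19 for effector targets, -0.0085 for kinases, acetylases and cofactors and -0.017 for the other ligases, deubiquitinases and Mdm2 inhibitors.

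The genes with the most similar pattern were found by the root mean square difference of centred log2 CPM over the 8 libraries, among 12695 other tested genes with established symbols. For Mdm2 these were Id1, a transcription inhibitor (0.0322), Pnpla7, a lysophospholipase (0.0322), and Lpin1, a phosphatidate phosphatase (0.0341). For Trp53inp1 they were Trim7 (0.0428), Ddit4l (0.0507) and Klhdc1 (0.0510). Lpin1 was at 73.5 ± 0.67 and 90.7 ± 3.21 CPM and Trim7 at 26.3 ± 1.34 and 36.8 ± 0.23 CPM (SD, n = 4 each).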

How the data were processed

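The authors deposited 1 file of unnormalized whole-number counts for each library, with Ensembl gene identifiers. The submitters' processing notes list mm10 as the build, featureCounts 1.5.0-p1, the aligner STAR 2.5.2a and, for demultiplexing, bcl2fastq 2.20.0.422. For the annotation release, strand setting and multi-mapped reads, the choice is not stated in these sources. Per the labels, polyA RNA was extracted with a Qiagen kit.

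Symbols and coordinates came from GENCODE M21 (GRCm38), which named 55480 of 55573 identifiers. The main test was that of edgeR 4.0.16 (R 4.3.3): TMM factors, filterByExpr (minimum count 10, minimum total 15), quasi-likelihood test with group as sole term, and Benjamini-Hochberg adjustment over 15259 genes. CPM used TMM-scaled library sizes. Alternatives were DESeq2 1.42.0, limma-voom (limma 3.58.1), scaling by RLE or upper-quartile factors, other filters, a replicate block, leaving out libraries, and loess removal of GC and length trends. The tested ratios used counts plus 0.5, and the ratios among the genes called higher used CPM without an added count.

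The genes and lists were chosen with earlier results of these data known. Named genes were all 10, genes overlapping them, the 2 genes with the smallest p and the 1 further gene with the highest CPM of each list, Cdkn1a, and the 3 nearest patterns of Mdm2 and Trp53inp1. Ppp1r13l, Bbc3 and Gadd45a were named after their values were seen.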

Additional observations from a re-analysis of the deposited data

Results flagged for a closer look

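In 4 of 68 sets of 4 libraries examined, 1 library stood far from the other 3; chance alone gives about 1 in 20. Ppm1d was at 34.5 CPM in non-irradiated I, against 39.7 to 40.7 CPM in the other 3. Zmat3 was at 135.9 CPM in the same library, against 106.7 to 108.7 CPM. Bbc3 was at 44.07 CPM in non-irradiated III, against 36.49 to 37.53 CPM. The log2 ratio of Trp53inp1 to Trp53 counts was 3.765 in irradiated IV, against 3.604 to 3.617.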

How the results depend on the processing

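Mdm2, Mdm4, Ppm1d, Ccng1 and Trp53inp1 were called higher in all 18 alternative fits, with adjusted p at most 0.00406. Without 1 library the mean difference in log2 ratio was 0.30 to 0.43 for Mdm2/Trp53, 0.52 to 0.69 for Ccng1/Zmat3, 0.49 to 0.65 for Trp53inp1/Trp53 and -0.095 to -0.041 for Mdm2/Mdm4; groups that do not overlap stay so, so the p of the first 3 says nothing about stability. Over fits without 1 library Trp53 ran from -0.097 to 0.017, the latter without non-irradiated I; without both non-irradiated I and III it was 0.068 and Rchy1 -0.017; neither gene was called in any fit. Without a filter on low counts 1 family gene was called lower, Zmat3 (adjusted p = 0.00101), with 648 genes higher, 4 kinases and cofactors lower and 2 other ligases higher; the cause was not tested. Other ligases called higher numbered 1 with RLE factors, 1 with upper-quartile factors, 3 with DESeq2 and 1 with the filter of 1 CPM in 4 libraries. Leaving out 1 library gave 221 to 402 genes higher and 415 to 611 lower, 0 to 1 kinases and cofactors higher and 0 to 1 other ligases higher. Settings chosen after seeing the data gave 295 genes lower (and 301 higher, 50.5% of the calls against 38.4%), 0 kinases and cofactors higher and 1 lower without both irradiated I and II; 0 higher, 1 lower and 1 other ligase higher without both non-irradiated I and III; and 596 genes higher, 2 kinases and cofactors higher, 2 other ligases higher and 1 lower with the GC and length trends removed. With the replicate block, 550 genes were higher and 802 lower, 3 kinases and cofactors and 3 other ligases were higher, and no family gene changed its call; same-numbered libraries had deviations correlated from -0.033 to 0.28, and 2 of 4 numbers correlated best with their own, so the numerals are not taken as pairs. Trp63 and Trp73 had too few counts for the main fit, and whether depth or lack of expression limits them was not tested.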
